A study of Mus musculus with 28 samples.

Results

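The genes described here encode the Aurora kinases and their nearest partners: Aurka and Aurkb (the kinases Aurora A and Aurora B), Incenp, Birc5 (survivin) and Cdca8 (borealin), which join Aurkb in the chromosomal passenger complex, and Tpx2, the activator of Aurka. They are 6 of 18193 genes measured, chosen by name with earlier results of these data known. Of their 17 probe sets the brightest of each gene was used and the rest served as a check. The samples were B-cell lymphomas of Emu-myc transgenic C57BL/6 mice, in which Myc is driven through the B lineage, and all of them, controls included, also carried retroviral Bcl2, an inhibitor of apoptosis, and had been selected with puromycin. Cells of 14 lymphomas, each from lymph nodes, were grown on irradiated NIH 3T3 fibroblasts, and 1 culture per lymphoma was left untreated while its partner received 0.05 µg/ml Adriamycin (ADR, doxorubicin, a drug that breaks DNA through topoisomerase II) for 5 days. The labels call the treated state treatment-induced senescence, give no ages and name no step that would part lymphoma cells from the feeder cells. Each of the 28 arrays may thus hold RNA of every cell type in a culture, in shares that the labels do not give. Fewer cells of a type cannot be told apart from less RNA per cell.

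Aurora A works at centrosomes and spindle poles, where Tpx2, released from importins by the small GTPase Ran, switches it on and holds it on spindle microtubules. Aurora B is carried by the passenger complex, first to inner centromeres, where it destabilises wrongly attached microtubules, and later to the spindle midzone and midbody, where it serves cytokinesis. Incenp is the scaffold that binds and activates Aurora B, and Birc5 and Cdca8 bind its other end and bring the complex to chromatin. In cycling cells transcripts of these genes are known to rise towards G2 and mitosis, and many genes of that phase are repressed in G1 and quiescence through a promoter element called CHR (letters TTTGAA in its common form) beside CCAAT boxes, which bind the factor NF-Y.

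Promoters of 3 of the 6 genes, Aurka, Birc5 and Cdca8, were read from the RefSeq table for GRCm38.p6. Each window runs 5′ to 3′ on the gene's strand, from 250 bases before the annotated start to 50 after it, at chr2:172370521-172370820 (minus strand) for Aurka, chr11:117848987-117849286 (plus strand) for Birc5 and chr4:124936868-124937167 (minus strand) for Cdca8. No window was available here for Aurkb, Incenp and Tpx2. The 3 are shown as promoters of genes that fell after ADR in every lymphoma, as did the other members, and capitals mark every match on either strand to the common CHR letters TTTGAA, to the further CHR form TTCGAA, to the NF-Y box CCAAT, which reads as ATTGG from the other strand, or to the E2F site forms TTCCCGC and, as a variant of it, TTGGCGC.
Aurka: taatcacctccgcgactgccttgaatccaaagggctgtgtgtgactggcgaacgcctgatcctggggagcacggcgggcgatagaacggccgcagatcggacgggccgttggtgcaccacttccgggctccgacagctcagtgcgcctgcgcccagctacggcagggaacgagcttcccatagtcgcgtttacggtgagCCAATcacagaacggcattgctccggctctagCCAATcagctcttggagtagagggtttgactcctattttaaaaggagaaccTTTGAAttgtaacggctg
Cdca8: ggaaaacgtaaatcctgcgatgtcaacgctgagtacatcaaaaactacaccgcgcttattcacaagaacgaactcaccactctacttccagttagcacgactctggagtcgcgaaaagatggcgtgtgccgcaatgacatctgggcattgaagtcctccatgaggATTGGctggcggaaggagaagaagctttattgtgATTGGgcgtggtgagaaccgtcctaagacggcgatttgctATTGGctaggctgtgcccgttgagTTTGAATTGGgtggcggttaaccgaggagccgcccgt
Birc5: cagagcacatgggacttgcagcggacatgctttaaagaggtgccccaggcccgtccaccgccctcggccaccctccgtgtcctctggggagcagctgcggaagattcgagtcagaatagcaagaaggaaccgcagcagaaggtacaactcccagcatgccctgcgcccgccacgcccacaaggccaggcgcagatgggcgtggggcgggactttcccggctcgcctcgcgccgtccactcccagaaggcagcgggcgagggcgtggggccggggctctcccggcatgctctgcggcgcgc

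The windows of Aurka and Cdca8 held both TTTGAA and CCAAT, and that of Birc5 held none of the 5 motifs searched. Counting from the start, the first base of CCAAT lay at positions -51 and -19 in Aurka and that of TTTGAA at 33. In Cdca8 the reversed box ATTGG lay at -85, -51, -11 and 19, and the last overlapped by 1 base a TTTGAA at 14. Among all 32851 windows of this length, 17.9% held TTTGAA, 37.4% CCAAT and 6.95% both, while 1.56% held TTCGAA, 4.6% TTCCCGC and 2.45% TTGGCGC. These matches describe letters in the windows and not binding.

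The arrays were compared before the genes were described. In lymphoma 9584 the Y-linked Eif2s3y read 4.74 untreated and 8.61 after ADR, the widest gap between 2 arrays of a lymphoma for this gene, while Kdm5d (7.17 and 7.20) and Xist (5.57 and 5.17) were close. The ADR array of lymphoma 1570 stood apart in the 3′ minus 5′ signal of Gapdh, at 0.92 where the median ADR array was at 0.06. Some results are therefore also given without these lymphomas. Of defining B-cell genes, Ighm (13.30), Blnk (11.76), Cd79b (11.31) and Cd79a (10.95) were bright in untreated arrays, while Pax5 (5.59) was the dimmest of the list, with array medians over all probe sets between 4.71 and 4.80. Of the T-cell list 0 of 8 genes were called by limma, with 2 at an unadjusted p under 0.05. After ADR 22 of 24 genes of the fibroblast list rose, and so did 11 of 15 of the macrophage list, where 15.3% of all genes were higher. The mean log2 level of the fibroblast list ran from 4.66 to 5.53 over untreated and from 5.04 to 9.13 over ADR arrays, with Col3a1 its dimmest gene in untreated arrays at 3.19. That of the macrophage list ran from 5.14 to 8.72 and from 6.34 to 9.81, with Mrc1 dimmest at 3.81.

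All 6 genes fell after ADR, each in 14 of 14 lymphomas. The falls ran from 2.52-fold for Incenp to 5.10-fold for Aurkb, with a median change of -1.70 on the log2 scale, where the median over all genes was -0.001. Arrays were compared within lymphomas by limma, with the Benjamini-Hochberg adjustment spanning the 18193 genes. By that test 28.7% of all genes were called at an adjusted p of 0.05, 13.4% as lower, and 2.59% of all genes were lower in every lymphoma. All 6 genes were called and fell by at least 1 on the log2 scale, as did 1.84% of all genes, and all 6 were also called without the pairing, where 9.47% of all genes were lower. Each change below is the ADR minus the untreated log2 value of the same lymphoma. The standard error (SE) of a mean change over the 14 pairs is that of limma, which also draws on the variances of all genes. For differences between gene pairs it is the plain SE over the 14 lymphomas.

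Aurkb, the kinase of the passenger complex, fell most. Its untreated log2 levels had a lowest value of 8.29, a median of 9.51 and a highest of 10.22, and its ADR levels were 5.07, 7.25 and 8.74. The ADR arrays lay below the lowest untreated array in 13 of 14 lymphomas, the exception being 9584. The change was -2.35 ± 0.19 (adjusted p = 2.23e-06), the second largest fall among all genes. Its other probe set gave -2.54 ± 0.21, but both carry a suffix of sets whose probes may also match other transcripts. The brightest sets of Incenp and Cdca8 carry one too, while each of these genes also has a set without one.

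Incenp, the scaffold, fell least. Its log2 levels were 9.60, 10.84 and 11.06 (lowest, median and highest) in untreated and 8.46, 9.26 and 10.47 in ADR arrays. The groups overlapped: 8 of 14 ADR arrays lay below the lowest untreated array, which was that of lymphoma 5560. The change was -1.33 ± 0.16 (adjusted p = 1.94e-05). Incenp had 5 probe sets, of which the other 3 with untreated means above 5 gave -1.28 ± 0.16, -1.24 ± 0.15 and -0.95 ± 0.14, and the dimmest, at 4.25, gave -0.024 ± 0.066 (adjusted p = 0.843).

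Birc5 and Cdca8, the subunits that dock the complex on chromatin, were the pair whose groups did not overlap at all, a pattern that 0.192% of all genes showed. The overlap of Aurkb and Incenp rested on 1 untreated array, that of lymphoma 5560. Their next lowest untreated arrays (9.05 and 10.49) lay above their highest ADR arrays (8.74 and 10.47). Birc5 ran from 9.85 to 10.80 (median 10.24) in untreated and from 5.53 to 9.62 (median 8.31) in ADR arrays. Every ADR array thus lay below every untreated one, the change being -1.98 ± 0.23 (adjusted p = 1.69e-05, 1 probe set). Cdca8 ran from 9.65 to 10.71 (median 10.14) and from 7.22 to 9.60 (median 8.50). It changed by -1.73 ± 0.17 (adjusted p = 4.38e-06), and its other 2 probe sets gave -1.80 ± 0.17 and -1.78 ± 0.19.

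Aurka, the spindle-pole kinase, had untreated log2 levels of 8.14, 9.22 and 9.71 (lowest, median and highest) and ADR levels of 5.78, 7.48 and 8.89. In 11 of 14 lymphomas the ADR array lay below the lowest untreated array, and the others, 403, 5043 and 9584, lay within the untreated range. The change was -1.67 ± 0.19 (adjusted p = 1.37e-05). Its other probe set was dim in every array, at 2.82 to 3.65, and gave -0.064 ± 0.048 (adjusted p = 0.369).

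Tpx2, the activator of Aurka, ran from 8.39 to 10.36 (median 9.60) untreated and from 5.86 to 9.15 (median 7.98) after ADR, with 10 of 14 ADR arrays below all untreated ones. The arrays that overlapped were those of 403, 5043, 5560 and 9584. The change was -1.64 ± 0.23 (adjusted p = 7.2e-05). Of its other probe sets 1 gave -1.87 ± 0.18, and the remaining 2, with untreated means of 5.08 and 5.12, gave -0.14 ± 0.08 and -0.21 ± 0.09 (adjusted p = 0.228 and 0.102).

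**Figure D1:**
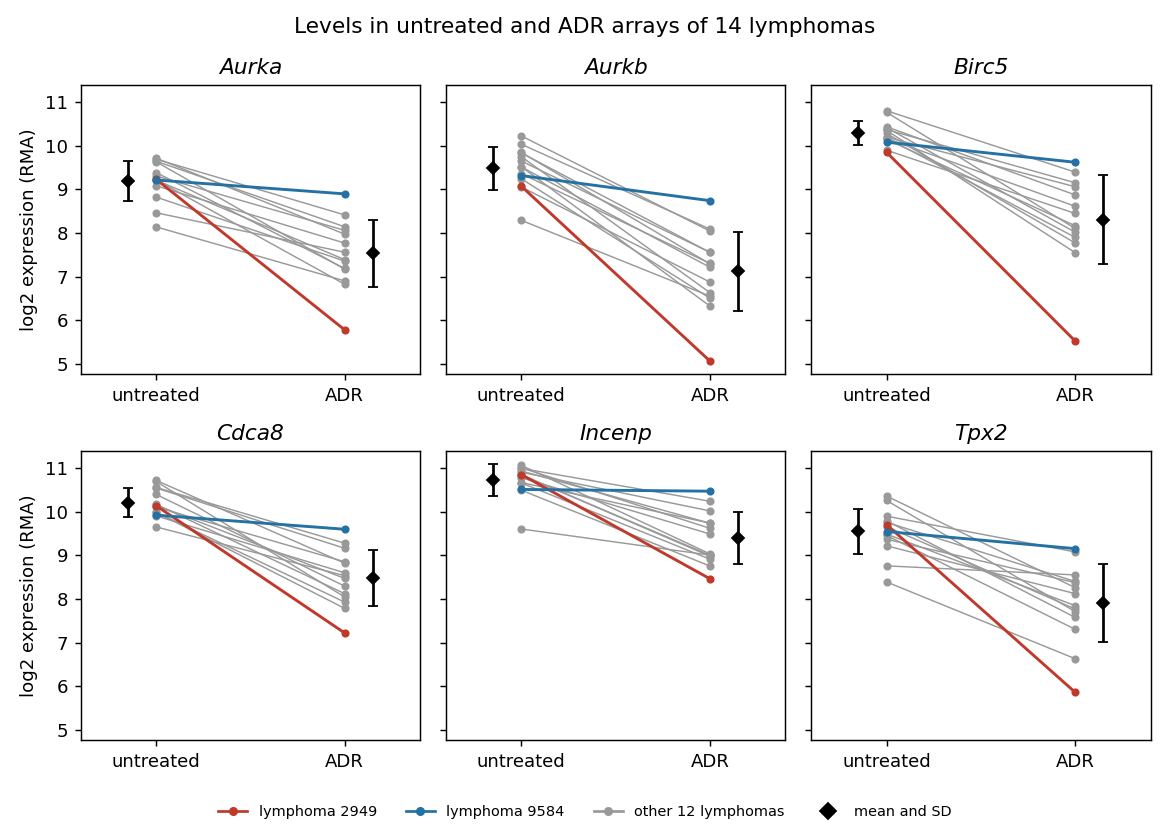
Log2 expression of the 6 genes in the untreated and ADR array of each lymphoma (lines join arrays of 1 lymphoma, diamonds and bars are the mean and SD of 14 arrays). All lines go down; the ADR arrays spread more widely than the untreated ones, with 2949 lowest and 9584 highest after ADR in all 6 genes.

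**Figure D2:**
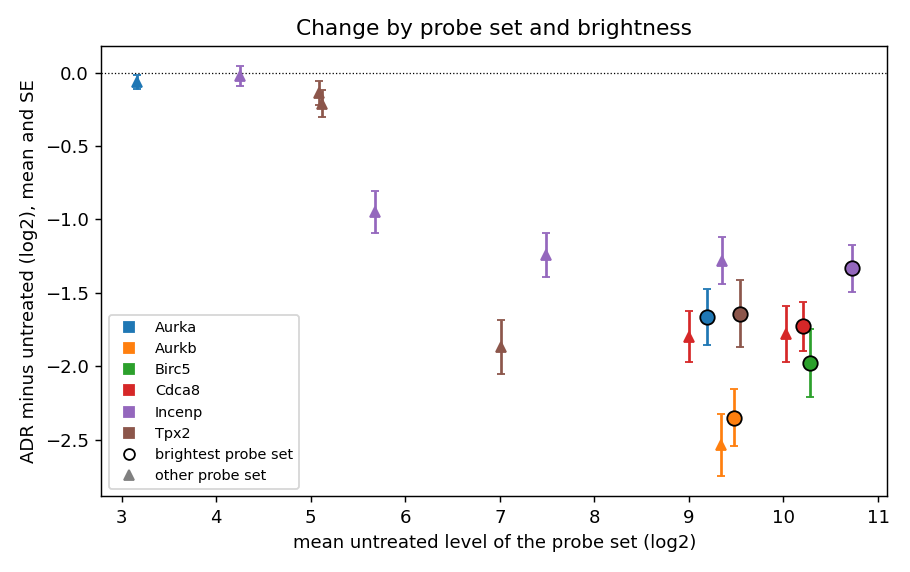
Change after ADR (mean over 14 lymphomas and limma SE, log2) of all 17 probe sets against their mean untreated log2 level. Circles are the brightest set of a gene and triangles the others. Sets with an untreated mean above 5.5 gave changes from -2.54 to -0.95, and the 4 sets below that gave changes from -0.21 to -0.024.

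The sizes of the falls differed between partners within the same cultures. In 5 pairs tested by an exact two-sided sign-flip permutation test over the 14 lymphomas, with p-values adjusted over the 5, Aurkb fell more than Aurka by 0.69 ± 0.08 (SE, adjusted p = 0.000203, in 14 of 14 lymphomas). Aurkb also fell more than Incenp by 1.02 ± 0.08 and more than Cdca8 by 0.62 ± 0.07, each in 14 of 14 lymphomas (adjusted p = 0.000203). These p-values come from the smallest unadjusted value the test can give, 0.000122. Against Birc5 the difference was 0.37 ± 0.11 in 11 of 14 lymphomas (adjusted p = 0.00763). Tpx2 and Aurka differed by 0.02 ± 0.10 (adjusted p = 0.807), with single lymphomas between -0.52 and 0.69. Probe sets differ in how far they compress a change, so that a larger fall here is one of the array's readings and not of transcript numbers.

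Aurkb was the gene with the largest fall in 11 of 14 lymphomas and Birc5 in the other 3 (1570, 2581 and 2949). The smallest fall was that of Incenp in 8 lymphomas, Tpx2 in 3 (403, 3594 and 5560), Aurka in 2 (2581 and 9583) and Birc5 in 1 (1467). Tpx2 in lymphoma 5560 changed by -0.21 where Aurkb changed by -1.74 and Birc5 by -1.45. In lymphoma 9583 Aurka changed by -1.24, while Aurkb stood at -2.73 and Birc5 at -2.28.

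The falls also differed between lymphomas. In 2949 all 6 genes had their largest fall, from -2.38 for Incenp to -4.32 for Birc5, which is 20-fold. When arrays were matched over all genes, the untreated array of 2949, like that of 6054, did not match best with its own ADR array. In 9584 the falls were the smallest for all genes but Tpx2, from -0.04 for Incenp to -0.57 for Aurkb, the latter 1.49-fold. Between these, the mean change of the 6 genes ran from -2.53 in 5766 to -1.001 in 5560. Without 9584 the changes were -2.49 for Aurkb, -2.10 for Birc5, -1.84 for Cdca8, -1.77 for Aurka, -1.74 for Tpx2 and -1.43 for Incenp. Without 2949 they were -2.22, -1.80, -1.64, -1.53, -1.47 and -1.25 in the same order, and no call was lost by leaving out any single lymphoma (largest limma adjusted p = 0.000245, for Tpx2).

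**Figure D3:**
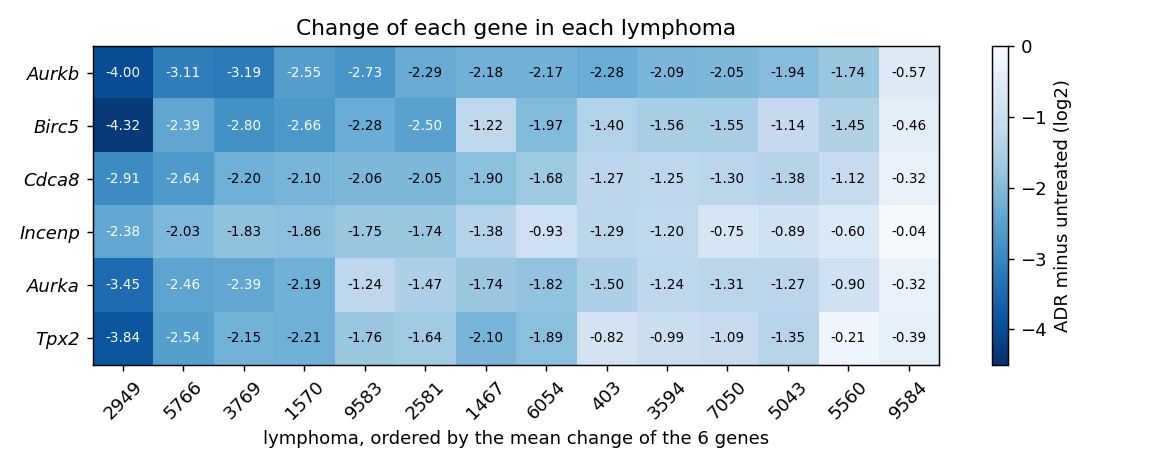
ADR minus untreated log2 value of each gene (rows) in each of 14 lymphomas (columns, ordered by the mean over the 6 genes), darker for larger falls. The columns run from 2949 at the left to 9584 at the right, and the order of the lymphomas is alike but not the same in each row (Spearman rho from 0.68 to 0.96). Birc5 in 1467, Aurka in 9583 and Tpx2 in 5560 are paler than the neighbouring cells of their rows.

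The genes moved in step across lymphomas. Over the 15 pairs of genes Pearson r between their 14 changes ran from 0.85 (Birc5 and Tpx2) to 0.95 (Cdca8 and Incenp), and Spearman rho from 0.68 to 0.96. All 15 passed a permutation test (largest adjusted p = 0.00031 for r and 0.00923 for rho, adjusted over the 15). Without 2949 and 9584, the lymphomas farthest from the median, r ran from 0.62 to 0.91, and in the 11 lymphomas that the labels tie to an earlier series it ran from 0.81 to 0.96. Points of both genes share arrays and their normalization. Untreated levels were linked more loosely, at r from 0.42 (Birc5 and Tpx2) to 0.92 (Aurka and Tpx2), and 11 of 15 pairs had an adjusted permutation p under 0.05.

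ADR levels varied more between lymphomas than untreated ones. The SD over 14 arrays went from 0.27 to 1.02 for Birc5 and from 0.49 to 0.91 for Aurkb. For Incenp, with the smallest widening, it went from 0.37 to 0.60. The ratio of the ADR to the untreated SD lay between 1.63 and 3.71 for the 6 genes, with a median of 1.08 over all genes, and was not tested. The ADR arrays of lymphomas 2949 and 9584 were the lowest and highest in all 6 genes. The ratio includes both and was not computed without them. Untreated and ADR levels of a gene correlated across lymphomas at r from 0.14 (Cdca8) to 0.49 (Aurkb) and none of 6 passing (smallest adjusted permutation p = 0.459).

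The 3 genes whose changes were most like those of each member were found by Pearson r over the 14 lymphomas, among the brighter 9097 genes. For Aurka these were Cdca3 (r = 0.97), Ube2c (0.96), which encodes the ubiquitin-conjugating enzyme of the anaphase-promoting complex, and Racgap1 (0.94), a cytokinesis factor. For Aurkb they were Brca1 (0.98) and Fancd2 (0.96), genes of DNA repair, and the kinesin gene Kif18b (0.96). For Birc5 they were the kinase gene Pbk (0.98), the spindle motor gene Kif11 (0.96) and Cdca5 (0.96), which encodes sororin, a protector of cohesion.
For Cdca8 they were the checkpoint gene Mad2l1 (0.97), the kinetochore gene Ska1 (0.97) and the condensin gene Smc2 (0.96). For Incenp they were Ska1 (0.96), the centriole duplication kinase gene Plk4 (0.96) and Fignl1 (0.95). For Tpx2 they were the microtubule-binding Hmmr (0.96), the midzone bundler Prc1 (0.96) and the checkpoint kinase gene Bub1 (0.95).

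Genes that recruit and move the passenger complex fell with it: 8 of 9 were lower and 1 higher (median change -1.61). Of all genes 13.4% were lower and 15.3% higher. The checkpoint kinase gene Ttk changed by -2.09 ± 0.28, Bub1, whose product marks histone H2A for the complex, by -2.08 ± 0.26, and Kif20a, the motor that takes the complex to the midzone, by -1.97 ± 0.30. Haspin, whose mark on histone H3 is read by Birc5, and the shugoshin gene Sgo1 were among the 8, at -1.53 ± 0.15 and -1.61 ± 0.18. Evi5, whose product binds the complex, was the 1 that rose (0.43 ± 0.12, adjusted p = 0.0152, higher in 12 of 14 lymphomas).

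Of genes for Aurora B substrates and kinetochore proteins near them, 12 of 12 were lower (median -1.67), beside 13.4% of all genes. The checkpoint gene Bub1b changed by -2.11 ± 0.17, Ska1 by -2.03 ± 0.26 and the midzone kinesin gene Kif23 by -1.99 ± 0.21. The smallest fall of the list was that of the kinetochore gene Dsn1, at -1.29 ± 0.20.

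Of 13 measured cofactors of Aurora A and genes of the Ran pathway, 11 were lower and 0 higher (median -0.70). The shares over all genes were 13.4% and 15.3%. Plk1, the kinase that acts beside Aurora A at mitotic entry, changed by -2.00 ± 0.16, Hmmr by -1.68 ± 0.22 and Bora, whose product lets Aurora A activate Plk1, by -1.53 ± 0.17. The transport genes had smaller changes: Ran by -0.25 ± 0.07, the importin alpha gene Kpna2 by -0.66 ± 0.08 and the importin beta gene Kpnb1 by 0.24 ± 0.17 (adjusted p = 0.332).

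Genes of the opposing phosphatases and of Aurora degradation did not move as one: 6 of 16 were lower, 2 higher and 8 not called (median -0.11), beside 13.4% of all genes lower and 15.3% higher. Cdca2, whose product brings protein phosphatase 1 to anaphase chromatin, changed by -2.10 ± 0.20, and Cdc20 and Fzr1, the activators of the anaphase-promoting complex, by -1.52 ± 0.21 and -0.62 ± 0.08. The 4 phosphatase catalytic subunit genes had changes between -0.26 and -0.10, with Ppp1cc at -0.26 ± 0.06, Ppp1cb at -0.22 ± 0.07 and Ppp6c, the Aurora A phosphatase, at -0.13 ± 0.08 (adjusted p = 0.274). Klhl22, an adaptor of Cul3 ubiquitin ligases, rose by 0.39 ± 0.12 (adjusted p = 0.0255) and Rassf1 by 0.23 ± 0.07 (adjusted p = 0.0222). The third Aurora kinase, Aurkc, known from germ cells, was dim in both groups at 4.16 and 4.16 (0.00 ± 0.10, adjusted p = 0.991).

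**Figure D4:**
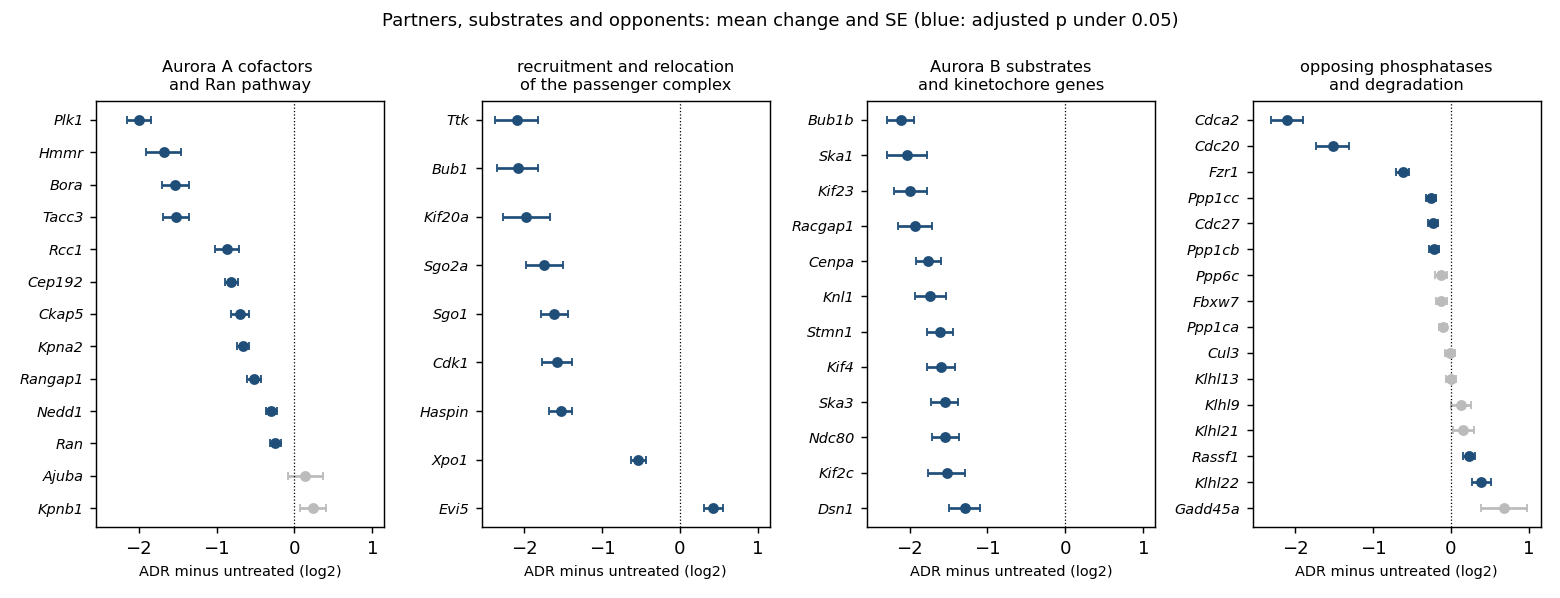
Change after ADR (log2, mean over 14 lymphomas and limma SE) of the genes of 4 lists around the Aurora kinases. Blue points have a limma adjusted p under 0.05. The 12 genes of the substrate and kinetochore list all lie between -2.11 and -1.29, while most of the phosphatase and degradation list lies near 0.

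As a yardstick from the same phase, the mitotic cyclin genes Ccnb2 (-2.34 ± 0.25) and Ccna2 (-2.23 ± 0.23) and their kinase gene Cdk1 (-1.58 ± 0.20, also in the recruitment list) had a median of -2.23. The 6 Mcm2 to Mcm7 helicase genes, which load on DNA before S phase, had a median of -1.16. Of these, 6 of 6 were lower, beside 13.4% of all genes. The difference between these groups and the Aurora genes was not tested. In lymphoma 9584 the helicase genes changed by -0.01 and the cyclins with Cdk1 by -0.27 on average, and in 2949 by -1.48 and -4.16.

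Without lymphoma 9584 the counts of these 4 lists and of the cyclin and helicase genes were the same, and without 1570 the phosphatase list had 1 higher gene in place of 2. The fibroblast list had 21 higher genes without 9584 and 21 without 1570, and the T-cell list had 1 without 1570. A further fit took the change of the fibroblast list as a covariate and was read at no fibroblast change. In it 9 of 13 Aurora A cofactors and 7 of 9 recruitment genes were lower. So were 12 of 12 substrate and kinetochore genes and 4 of 16 phosphatase and degradation genes. Of these 4 lists 0 genes were higher, where 5.07% of all genes were lower. Of the helicase genes 4 of 6 were lower, of the mitotic cyclins with Cdk1 3 of 3, and of the B-cell list 1 of 8.

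The 6 genes themselves were lower at no fibroblast change as well, at -2.42 ± 0.35 for Aurkb, -2.31 ± 0.36 for Tpx2, -2.12 ± 0.41 for Birc5, -1.94 ± 0.29 for Cdca8, -1.92 ± 0.33 for Aurka and -1.43 ± 0.28 for Incenp (limma adjusted p from 0.00119 to 0.00567). Their changes correlated with the fibroblast change at r from 0.07 (Aurkb) to 0.50 (Tpx2), and with the macrophage change at r from -0.20 to 0.15. None of these 12 relations passed (smallest adjusted permutation p = 0.826). With the fibroblast change r ran from 0.37 (Aurkb) to 0.73 (Tpx2) within the 11 lymphomas, and from -0.11 to 0.24 without 403 and 5560. With the macrophage change it ran from -0.20 to 0.21 within the 11 lymphomas, and from -0.43 to -0.19 without 2581 and 2949. With the macrophage change as a covariate the sizes were -1.08 ± 0.36 for Incenp to -2.38 ± 0.45 for Aurkb, but no gene of the 6 was called (adjusted p from 0.0566 to 0.187) and 1 gene in all was lower. The macrophage list rose in every lymphoma, by at least 0.48, so that no culture stood at no macrophage change. Of the B-cell list 4 of 8 genes were lower, beside 13.4% of all genes, with a median of -0.23. The largest change of that list was that of the receptor gene Cd22 (-1.37 ± 0.15).

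The labels describe 11 lymphomas as samples analysed before in an earlier series and 3 (5043, 9583 and 9584) not so. All 6 genes were lower in both sets. The change of Aurka was -1.86 ± 0.72 (SD) in the 11 and -0.94 ± 0.54 in the 3, and that of Aurkb was -2.51 ± 0.66 and -1.75 ± 1.09. The differences between the sets lay between -0.56 and -0.92 with limma adjusted p from 0.864 to 0.878, in a comparison that called 1 gene of 18193 (0.0055%). The unadjusted limma p of Aurka was 0.0423, where 5.49% of all genes were under 0.05. Among the 3, the mean change of the 6 genes was -1.97 in 9583, -1.33 in 5043 and -0.35 in 9584. The differences were not computed without 9584. Within the 3 alone no gene was called lower (limma; 1073 genes were lower at an unadjusted p under 0.05), and within the 11 all 6 Aurora genes were, as were 12.4% of all genes.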

How the data were processed

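Gene expression was measured on 28 arrays, 1 untreated and 1 ADR culture of each of 14 lymphomas. The table the authors deposited holds log2 expression of 45101 probe sets, produced with RMA and Partek 6.5, per the submitters' processing notes. RMA subtracts a modelled background, equalises the arrays' distributions and combines the probes of a set. The genome build used for the arrays is not given in the sources used here. The count of arrays and the brightness of a probe set limit precision, and changes of dim sets are compressed.

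Probe sets with 1 gene in the array annotation of 2016 (34945) were used, and the one with the highest mean over all arrays stood for each of 18193 genes. Nothing was filtered for low values. The paired test used limma 3.58.1 (lmFit and eBayes, R 4.3.3), each lymphoma having its own term, with a Benjamini-Hochberg threshold of 0.05 across the 18193 genes. The pairing comes from the labels; arrays of 1 lymphoma deviated together (r from 0.27 to 0.61, against a median of -0.08 between lymphomas), and 12 of 14 untreated arrays matched best with their own ADR array, the exceptions being 2949 and 6054. Since each culture is a separate array of a lymphoma with its own identifier, n counts lymphomas. Pairs of genes were compared by exact sign-flip tests over 16384 flips, and correlations by 100000 permutations (Python 3.11.15, scipy 1.17.1, figures with matplotlib 3.10.9).

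The genes, lists and naming rule were chosen with earlier results of these data known. The rule named the 6 genes, the 3 largest called changes per list and called genes opposed to the list median, Aurkc, the mitotic cyclins with Cdk1 (Ccnb1 had no probe set of its own) and the 3 most similar genes. Other genes named from the lists (Haspin, Sgo1, Dsn1, Ran, Kpna2, Kpnb1, the phosphatase subunits, Cd22) and pairs of values set out by lymphoma were chosen after their values were seen. The fit was tested on simulated data. Alternatives were other blocks, probe sets, scalings, filters, subsets of lymphomas and covariates. Results without 9584 or 1570 for lists, and without 9584 for gene pairs, were added after the data were seen.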

Additional observations from a re-analysis of the deposited data

How the results depend on the processing

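Over 161 alternative values for the 6 changes, 0 changed sign, 145 kept their call and 16 lost it. Without the replicate block (lymphoma) the changes kept their size and call: -1.67 for Aurka, -2.35 for Aurkb, -1.98 for Birc5, -1.73 for Cdca8, -1.33 for Incenp and -1.64 for Tpx2, and 1933 genes were higher and 1723 lower, against 2790 and 2435 with it. Calls were lost within the 3 lymphomas outside the earlier series. There the changes were Aurka -0.94, Aurkb -1.75, Birc5 -1.29, Cdca8 -1.25, Incenp -0.89 and Tpx2 -1.17. In all, 1 gene was higher and 0 lower, with 2706 genes at an unadjusted p under 0.05 in limma. Fewer samples and smaller changes than in the 11 lymphomas of the earlier series cannot be told apart here. Calls were also lost with the macrophage change as a covariate, where 1 gene was higher and 1 lower. The changes in that fit were Aurka -1.88, Aurkb -2.38, Birc5 -2.06, Cdca8 -1.53, Incenp -1.08 and Tpx2 -1.66. The dimmest probe sets lost their calls too (Aurka -0.064, Incenp -0.024, Tpx2 -0.14 and -0.21). The fibroblast covariate left 1075 genes higher and 922 lower. Centring arrays on their median moved the median of all genes to -0.10 and the calls to 2007 higher and 4207 lower (67.7% lower, against 46.6%), and the 6 changes to between -1.43 and -2.45. Leaving out each lymphoma gave 2419 to 2862 higher and 2082 to 2572 lower genes, and changes from -1.77 to -1.53 for Aurka, -2.49 to -2.22 for Aurkb, -2.10 to -1.80 for Birc5, -1.84 to -1.64 for Cdca8, -1.43 to -1.25 for Incenp and -1.75 to -1.47 for Tpx2. The 5 differences between gene pairs kept direction and call with the most variable probe sets and without 9584. Where no reason is stated, the cause was not tested.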

Other observations

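The fall of the Aurora genes can be set beside the number of genes that responded in each lymphoma. In lymphoma 2949, with the largest falls of all 6 genes, 1081 genes changed by at least 1 on the log2 scale in either direction, and in 9584, with the smallest falls of all but Tpx2, 853 did. In lymphomas 403 and 5560, where 2666 and 2565 genes changed that far and the fibroblast list rose by 3.96 and 3.80, the 6 genes changed by -1.43 and -1.001 on average. Lymphomas 3769, 2581 and 5766 had 2414, 2115 and 1623 such genes and mean changes of -2.43, -1.95 and -2.53. Lymphoma 6054 had 861 such genes and a mean change of -1.74. These lymphomas were chosen after their values were seen, and a relation over all 14 was not computed. The values are single cultures and were not tested.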
